A study of Arabidopsis thaliana with 15 samples.

Results

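The R2R3 MYB family was described here as possible targets of MYB3R transcription factors in the Arabidopsis thaliana inflorescence meristem. The members were the nuclear protein-coding genes whose symbol is MYB followed by digits alone, 115 of 27444 nuclear protein-coding genes. R2R3 MYB proteins carry a pair of MYB repeats and form one of the large transcription factor families of plants. They are known for switching on or off phenylpropanoid, glucosinolate, cuticle and cell wall pathways, and for stamen, trichome and stomatal development. MYB3R proteins carry an additional repeat and are known for activating or repressing genes of the G2 and M phases of the cell cycle. Several R2R3 proteins act in complexes with bHLH and WD40 proteins, and small R3-MYB proteins compete for those partners.

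The 8 chromatin immunoprecipitation (ChIP-seq) libraries came from dissected inflorescence meristems of Col0 plants grown in long days (16 h light, 8 h dark). The plants expressed GFP-MYB3R1 from the MYB3R1 promoter (3 libraries), or GFP-MYB3R4mNES (2 libraries) or GFP-MYB3R4 (3 libraries) from the MYB3R4 promoter, and one antibody against GFP (ab290) was used for all. The labels do not spell out mNES, do not say how many transgenic lines were used or whether replicates came from separate plants, and list no ChIP from untagged plants. A gene was called bound in a library when a peak summit lay from 1000 bp outside to 200 bp inside either end of the gene. Fold enrichment, given for the strongest such summit, is the authors' ratio over the background from input. The family was chosen with results of these peak lists in view, so its counts are given as a description and no test was made.

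The peak lists differed widely in length. MYB3R1 replicates 1, 2 and 3 had 11478, 19655 and 7089 nuclear peaks, MYB3R4mNES replicates 1 and 2 had 227 and 256, and MYB3R4 replicates 1, 2 and 3 had 786, 2717 and 456. The read depth behind these lists is unknown, and a gene without a peak is one that was not called in that library. Part of the libraries were prepared by a company with another method, and which ones was not given. The file names follow 2 styles, one shared by replicates 1 and 2 of MYB3R1 and of MYB3R4 and the other by the remaining 4 libraries, and values are given for each library. The peaks of MYB3R4mNES replicate 1 carry the name of MYB3R4 replicate 3. No peak had the same start and end in both lists, and 200 of the 227 peaks overlapped a MYB3R4 replicate 3 peak, while 172 overlapped one of MYB3R4mNES replicate 2. Whether that library belongs to its label was not tested, and it contributes 1 bound member, MYB80, which MYB3R4mNES replicate 2 had as well.

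R2R3 MYB genes had MYB3R1 peaks less often than genes at large in each of the 3 libraries. In MYB3R1 replicate 1, 29 members (25.2%) were bound, beside 43.6% of all genes. In replicate 2 the share was 46 members (40%) beside 65.9%, and in replicate 3 it was 20 members (17.4%) beside 29.5%. The ratio of the member share to the share of all genes was 0.579, 0.607 and 0.59 in replicates 1, 2 and 3, so that it hardly moved while the lists differed in length. The mean member share was 27.5% ± 11.5 and that of all genes 46.3% ± 18.3, a difference of -18.8 ± 6.90 percentage points (SD, n = 3 libraries). With the 227 strongest peaks of each library in place of the full lists, 1.16% of members were bound on average and the difference was -0.0163 points. With lists that short, 1.16% to 1.19% of all genes were bound and 2, 1 and 1 members (MYB80, with MYB73 in replicate 1), too few to show a gap of the same ratio.

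In the MYB3R4mNES and MYB3R4 libraries few members were bound, and their share lay on both sides of that of all genes. MYB3R4mNES replicates 1 and 2 each had 1 bound member (0.87%), beside 0.612% and 0.747% of all genes. MYB3R4 replicate 1 had 4 (3.48%) beside 1.29%, replicate 2 had 13 (11.3%) beside 9.12%, and replicate 3 had 1 (0.87%) beside 1.3%. The group means were 0.870% ± 0 of members beside 0.680% ± 0.0953 of all genes for MYB3R4mNES (SD, n = 2) and 5.22% ± 5.43 beside 3.90% ± 4.52 for MYB3R4 (SD, n = 3). For MYB3R4 the gap between members and all genes was smaller than the spread between its libraries, and without replicate 2 the member mean was 2.17%. In at least 1 MYB3R4 library 13 members (11.3%) were bound, beside 9.64% of all genes, in at least 2 it was 4 (3.48%) beside 1.4%, and in all 3 it was 1 (0.87%) beside 0.663%. In both MYB3R4mNES libraries it was 1 (0.87%) beside 0.434%.

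Low MYB3R1 shares were also seen in 2 other large gene families. WRKY genes, which encode transcription factors of stress and defence responses, were bound at 32.8%, 49.3% and 17.9% in MYB3R1 replicates 1, 2 and 3 (67 genes). Cytochrome P450 genes, which encode oxidative enzymes of specialised metabolism, were bound at 25.6%, 50.2% and 11.9% (219 genes). The member share lay below that of the WRKY genes in all 3 libraries, by a small margin in replicate 3, and on both sides of that of the P450 genes. Neither family had a gene bound in MYB3R4mNES, and in MYB3R4 both had peaks in replicate 2 alone (10.4% of WRKY and 3.65% of P450 genes).

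**Figure D1:**
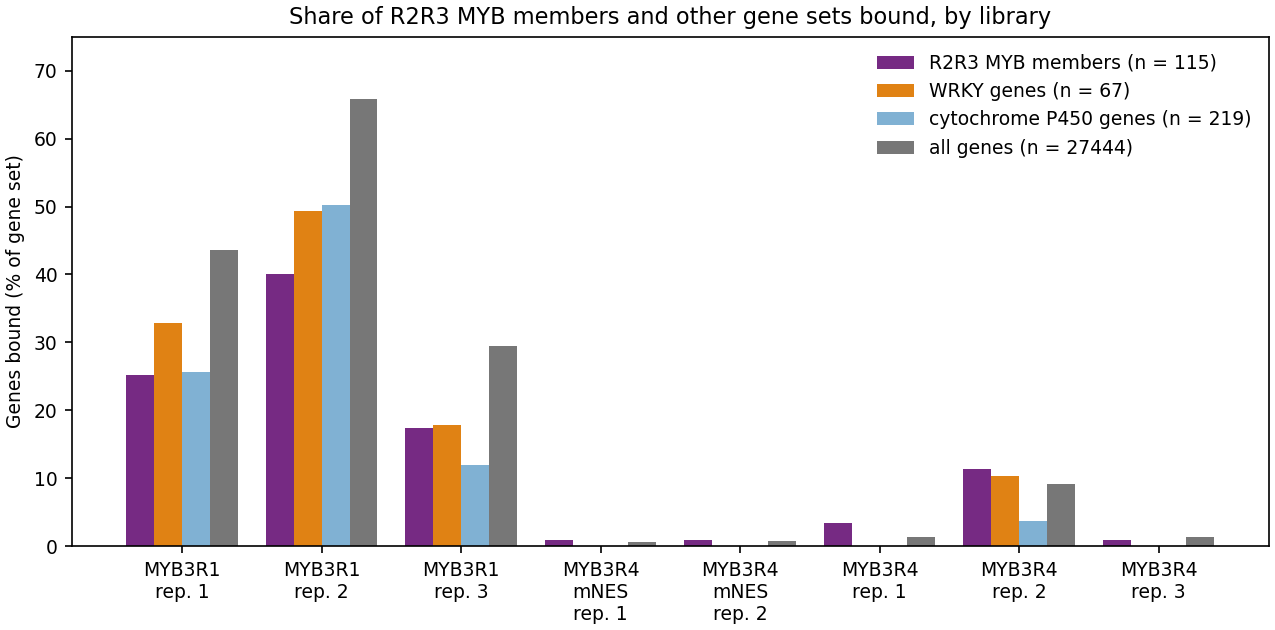
Share of genes bound, in percent of the gene set (vertical axis), in each ChIP library (horizontal axis), for the 115 R2R3 MYB members, 67 WRKY genes, 219 cytochrome P450 genes and all 27444 genes. In the 3 MYB3R1 libraries the member bars (25.2%, 40% and 17.4%) stand below those of all genes (43.6%, 65.9% and 29.5%), and in the other 5 no member bar exceeds 11.3%.

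Over the 3 MYB3R1 libraries, 17 members (14.8%) were bound in all 3, beside 26.9% of all genes, and 27 (23.5%) in at least 2, beside 44.8%. Without replicate 2, which had the longest list, 17 were bound in both other libraries. A further 24 (20.9%) were bound in exactly 1, beside 22.5%, which is close to the background. Of these, 19 (16.5%) were bound in replicate 2, beside 21.4% of all genes. In replicate 1 alone it was 3 (2.61%) beside 0.809%, and in replicate 3 alone 2 (1.74%) beside 0.27%. The member share was thus below that of all genes for binding in several MYB3R1 libraries and close to it for exactly 1. The latter share depends on the other classes, as 55.7% of members and 32.7% of all genes were bound in no MYB3R1 library. It therefore shows no trait of the members. The shares for replicate 1 or 3 alone lay above those of all genes but rest on 3 and 2 members. No member was bound in another library without MYB3R1: the 13 members with a MYB3R4 peak all had a MYB3R1 peak (94.1% of all genes with a MYB3R4 peak did). The other 64 members (55.7%) had no summit in the window in any of the 8 libraries, beside 32.1% of all genes.

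Where members were bound, their peaks were neither all strong nor all weak for the list. The percentile of a peak is the share of the list's nuclear peaks with a fold enrichment at or below its own. The median percentile of a bound member's fold enrichment within its list was 64.0, 56.4 and 61.8 in MYB3R1 replicates 1, 2 and 3, against 57.0, 61.1 and 56.2 for all bound genes. The 17 members bound in all 3 had fold enrichments of 2.87 to 21.5 in replicate 1 (median 3.72), 2.95 to 12.2 in replicate 2 (median 4.82) and 1.89 to 10.7 in replicate 3 (median 2.39). Those bound in exactly 2 reached 3.99, and those bound in exactly 1 reached 3.57.

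MYB80 (AT5G56110), a regulator of the tapetum and of pollen development, had the strongest peak of the family and was the 1 member bound in all 8 libraries (0.87%, beside 0.375% of all genes). Here GFP-MYB3R1 gave fold enrichments of 21.5, 12.2 and 10.7, in the order of the replicates, against 2.52 and 4.30 for MYB3R4mNES and 3.63, 5.03 and 4.61 for MYB3R4. Every MYB3R1 value lay above every MYB3R4mNES and MYB3R4 value, although fold enrichments of separately called lists share no common scale. By rank within its list the peak stood at 7, 4 and 15 in MYB3R1, at 68 and 20 in MYB3R4mNES, and at 22, 17 and 28 in MYB3R4. Its peak in MYB3R1 replicate 1 spanned chromosome 5 from 22720839 to 22721806 (TAIR10), with its summit at 22721296. The summits of the 8 libraries lay within 29 bp of each other, 615 to 644 bp outside MYB80. All 8 were nearer to the neighbouring gene AT5G56120, at 65 to 94 bp from its end, so the peak cannot be assigned to MYB80 from position alone. With a window of 500 bp, or with each summit counted for its nearest gene end, MYB80 was bound in 0 libraries.

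The genes of the MYB44 clade formed the next group. The clade holds MYB70, MYB73 and MYB77, which are known from auxin, abscisic acid and salt responses, and MYB44, which promotes stomatal closure and is listed under another symbol (MYBR1, AT5G67300). At MYB73 (AT4G37260) the fold enrichment reached 8.85, 7.37 and 2.90 for MYB3R1, in the order of the replicates, against 2.69 and 3.57 in MYB3R4 replicates 1 and 2. MYB77 (AT3G50060) had 7.75, 6.74 and 3.78 in MYB3R1 and 2.21 and 2.89 in MYB3R4. MYB70 (AT2G23290) had 6.71, 5.87 and 2.96 in MYB3R1 and 2.33 and 3.20 in MYB3R4. All 3 genes lacked a peak in both MYB3R4mNES libraries and in MYB3R4 replicate 3, the libraries with the shortest lists. MYBR1, which is not counted among the members, gave 6.59, 6.21 and 3.87 in MYB3R1 and 2.23 and 3.03 in MYB3R4 replicates 1 and 2, the same set of libraries. MYBR1 was added after the data were seen. Binding in exactly these 5 libraries was seen for 3 members (2.61%), beside 0.215% of all genes. That combination of libraries is the one found at these same 3 genes, so the shares cannot show an excess.

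The summits at these genes recurred between proteins. The MYB73 peak of MYB3R1 replicate 1 spanned chromosome 4 from 17538865 to 17540624, with all 5 summits 557 to 689 bp outside the gene. The MYB70 peak spanned chromosome 2 from 9906294 to 9907011, with summits 582 to 636 bp outside. At MYB77 the peak spanned chromosome 3 from 18558850 to 18559812, and summits ran from 67 bp inside the gene to 112 bp outside. At all 3 genes the member's end was the nearest coding gene end in every library that had a peak. The gene table gives no strand, so whether these summits lay at the start or the end of a gene could not be told.

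Another 9 members had a MYB3R4 peak in replicate 2 alone (7.83%, beside 7.86% of all genes), and all were bound by MYB3R1 too. MYB17 (AT3G61250), known from early flower development, had fold enrichments of 3.72, 5.05 and 2.35 in MYB3R1 and 1.97 in MYB3R4 replicate 2. Its strongest summit was nearer to AT3G61240 in MYB3R1 replicates 1 and 2 and in MYB3R4 replicate 2. MYB102 (AT4G21440), a wound and osmotic stress gene, had 3.48, 4.50 and 1.92 in MYB3R1 and 2.69 in MYB3R4 replicate 2. MYB3 (AT1G22640) and MYB4 (AT4G38620), repressors of phenylpropanoid synthesis, had 1.67 and 1.85 in MYB3R4 replicate 2. Those are weak peaks, at percentiles 3.17 and 20.5 of that list. The remaining members with such a peak were MYB16, MYB96, MYB95, MYB30 and MYB47, at 2.61, 2.01, 2.26, 1.93 and 2.10. Of the 13 members bound in MYB3R4 replicate 2, 9 had a MYB3R1 summit within 100 bp of the MYB3R4 summit and 13 within 400 bp. The nearest summit of any of the 3 MYB3R1 libraries was taken. The same counts were not made for all genes, so they show no trait of the members. At MYB96 the MYB3R4 summit lay at the opposite end of the gene from the strongest MYB3R1 summits, 3772 bp apart at most, and 252 bp from a weaker MYB3R1 summit of replicate 2.

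**Figure D2:**
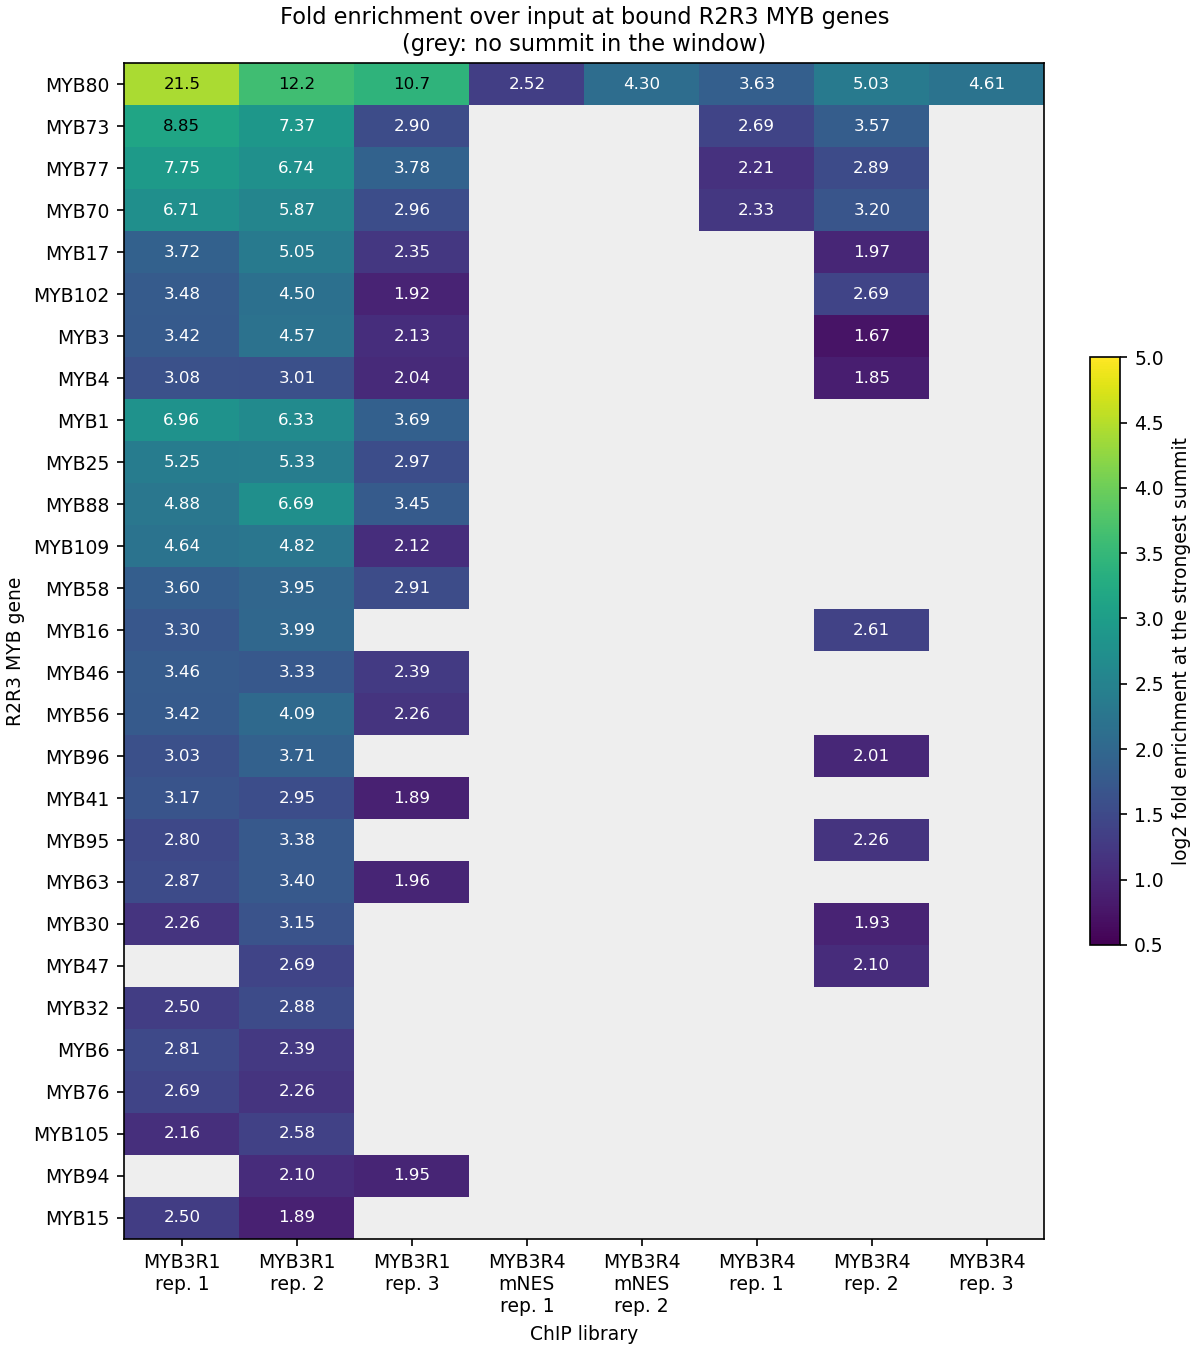
Fold enrichment over input at the strongest summit of each R2R3 MYB member bound in at least 2 MYB3R1 libraries or in any MYB3R4 library (rows), in each ChIP library (columns). Numbers are the fold enrichments, the colour is their log2, and grey marks no summit in the window. MYB80 fills all 8 columns, MYB73, MYB77 and MYB70 share the same 5, and all other MYB3R4 values stand in replicate 2.

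MYB3R1 without MYB3R4 (every MYB3R1 library, none of MYB3R4) was seen at 9 members (7.83%), beside 21.2% of all genes. They included MYB1 (AT3G09230), MYB25 (AT2G39880) and MYB109 (AT3G55730), which form a clade of close relatives. MYB1 had fold enrichments of 6.96, 6.33 and 3.69 in MYB3R1 replicates 1, 2 and 3, in a peak on chromosome 3 from 2832872 to 2833697 in replicate 1. MYB25 had 5.25, 5.33 and 2.97, and its summits lay 21 to 42 bp outside the gene. MYB109 had 4.64, 4.82 and 2.12, with summits 33 to 175 bp outside. The 3 genes were alike in having the summit close to a gene end, with their own end the nearest, and no peak of either MYB3R4 form.

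MYB88 (AT2G02820), which restricts divisions in the stomatal lineage, had fold enrichments of 4.88, 6.69 and 3.45 in MYB3R1 replicates 1, 2 and 3. Its summits lay inside the gene, at -189 to -179 bp from its end (negative inside), within 10 bp of each other and close to the inner limit of the window. FLP (AT1G14350), its paralog with the same role, which the symbol rule leaves out, had 4.03, 3.80 and 2.27. Both genes had a peak in each MYB3R1 library and in none of the other libraries.

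Lignin and wall regulators made up the rest of the group with MYB56 and MYB41. MYB58 (AT1G16490) and MYB63 (AT1G79180), activators of lignin synthesis, had 3.60, 3.95 and 2.91 and 2.87, 3.40 and 1.96 in MYB3R1 replicates 1, 2 and 3. Their summits lay 22 to 65 bp from the end of AT1G16480 and 14 to 52 bp from that of AT1G79190, closer than to the MYB genes in every library. MYB46, a master switch of secondary wall formation, had 3.46, 3.33 and 2.39, and DiT1 was nearer in all 3. MYB56, which holds back divisions in the root stem cell niche, had 3.42, 4.09 and 2.26, with its own end nearest. MYB41, a suberin and cuticle gene, had 3.17, 2.95 and 1.89, with AT4G28100 nearer in replicates 1 and 3.

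Of the 17 members bound in all 3 MYB3R1 libraries, 11 had their own end nearest to the summit in all 3, and at 4 (MYB80, MYB58, MYB63 and MYB46) another gene was nearer in all 3. The 3 MYB3R1 summits lay within 100 bp of each other at 12 of the 17. The distance between the outermost ranged from 9 to 274 bp, with a median of 45 bp.

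**Figure D3:**
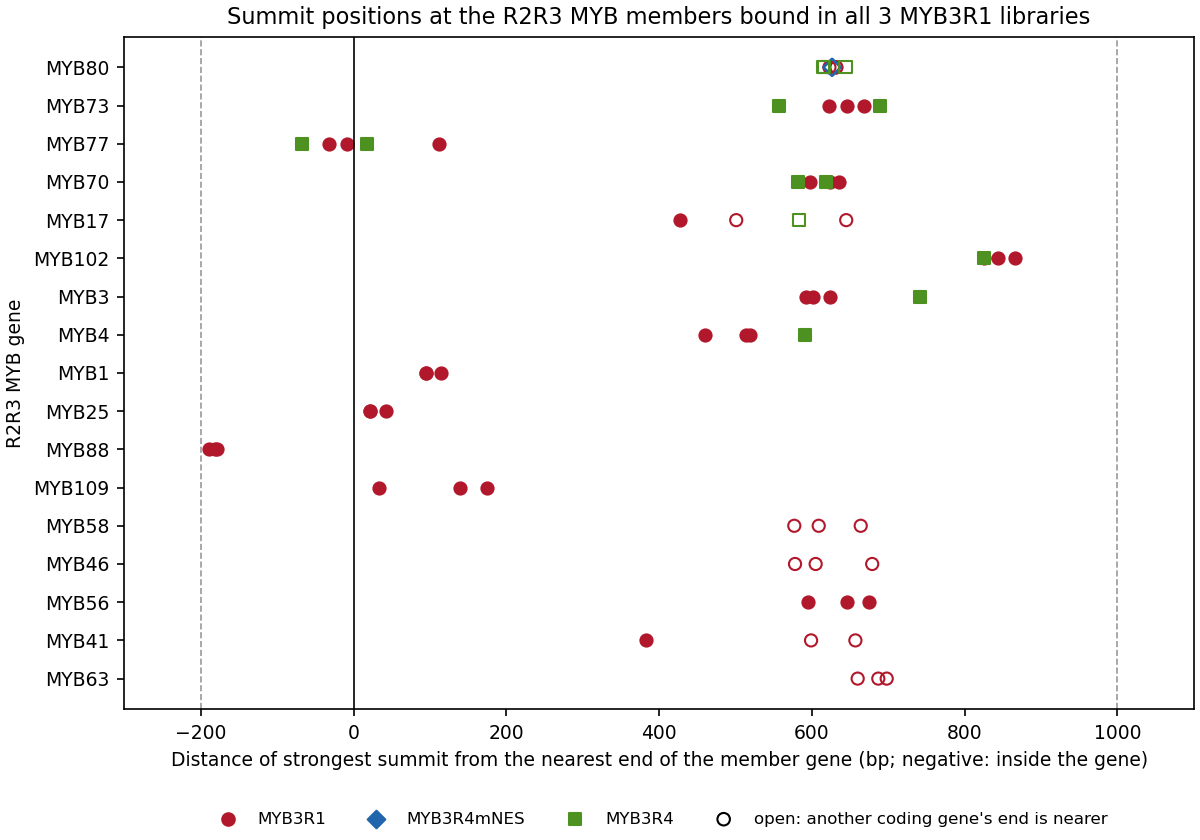
Distance in bp from the nearest end of the gene to the strongest summit (horizontal axis, negative values inside the gene, dashed lines at the limits of the window) for the 17 members bound in all 3 MYB3R1 libraries (rows). Circles are MYB3R1, diamonds MYB3R4mNES and squares MYB3R4 libraries, and open symbols mark summits nearer to another coding gene. At MYB80 the 8 summits fall within 29 bp and all are open, while MYB1, MYB25 and MYB88 have filled symbols close to the gene end.

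Members bound in exactly 2 MYB3R1 libraries numbered 10 (8.7%, beside 17.9% of all genes), 9 of them in replicates 1 and 2, which share a naming style. MYB16 (3.30 and 3.99), a regulator of cuticle formation and petal cell shape, and MYB96 (3.03 and 3.71), a wax regulator, had the highest values in replicates 1 and 2. At MYB16 the end of AT5G15320 was nearer in both (230 and 161 bp, against 770 and 839 bp), as it was in MYB3R4 replicate 2. MYB95 had 2.80 and 3.38, and MYB30, which promotes long-chain fatty acid synthesis and cell death in defence, had 2.26 and 3.15. The repressors MYB32 (2.50 and 2.88) and MYB6 (2.81 and 2.39) had their strongest summits at different ends of the gene in the 2 libraries, 1364 and 1615 bp apart. MYB76, MYB105 and MYB15 completed the 9, and MYB94 (2.10 and 1.95) was bound in replicates 2 and 3. The MYB15 summits lay 32 and 7 bp from the end of AT3G23255 in replicates 1 and 2, nearer than to MYB15.

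Members bound in a single MYB3R1 library had fold enrichments of up to 3.57. In replicate 1 these were MYB7 (3.57), MYB2 (2.81) and MYB65 (2.32), and in replicate 3 MYB72 (2.85) and MYB13 (2.20). Those in replicate 2 ran from MYB57 (1.80) to MYB67 (3.30), with MYB33, MYB118, MYB106, MYB117, MYB5, MYB27, MYB28, MYB26, MYB60, MYB74, MYB116, MYB110, MYB120, MYB83, MYB29, MYB92 and MYB47 between them. By the window rule these calls have no second MYB3R1 library behind them. At MYB72 the nearest summits of replicates 1 and 2 lay 1087 and 1061 bp outside the gene, just beyond the window. With any overlap of peak and window, MYB72, MYB13, MYB7 and MYB120 were bound in all 3 MYB3R1 libraries.

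Grouped by known function, the lists differed in how many members MYB3R1 bound in at least 2 libraries, to be read against 44.8% of all genes. The lists were written from general knowledge of the genes, with no published table behind them, and every count depends on their membership. Among phenylpropanoid repressors it was 4 of 5 (MYB3, MYB4, MYB32 and MYB6), and the fifth, MYB7, had a peak in replicate 1. At MYB32 and MYB6 the strongest summits of replicates 1 and 2 lay at different ends of the gene, 1364 and 1615 bp apart. MYB3 had 3.42, 4.57 and 2.13 and MYB4 3.08, 3.01 and 2.04 in MYB3R1 replicates 1, 2 and 3. Among flavonol and anthocyanin activators it was 0 of 6. MYB11, MYB12 and MYB111, which activate flavonol synthesis, and MYB90, MYB113 and MYB114, which activate anthocyanin synthesis, were bound in none of the 8 libraries. TT2 and PAP1, activators of the same pathways under other symbols, had no peak either. These counts moved with the window. With 2000 bp, MYB11 and MYB12 were bound in 3 libraries each, and with any overlap of peak and window in 3 and 2, while with 500 bp MYB3 was bound in 0 libraries and MYB4 in 1, against 4 each as reported.

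Cuticle, suberin and Casparian strip regulators had 5 of 13 (MYB16, MYB96, MYB41, MYB30 and MYB94). Stress and hormone response regulators had 5 of 16 (MYB73, MYB77, MYB70, MYB102 and MYB15). Secondary wall and lignin regulators had 3 of 13 (MYB58, MYB46 and MYB63). Glucosinolate regulators had 1 of 6, MYB76 of the aliphatic branch at 2.69 and 2.26, and the indole regulators MYB34, MYB51 and MYB122 were unbound. Each of these shares lay below that of all genes.

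Stamen, pollen and gametophyte regulators had 1 of 14, MYB80. MYB21 and MYB24, which drive late stamen growth, and the pollen tube genes MYB97 and MYB101 had none. Axillary meristem and boundary regulators had 1 of 4, MYB105 (LOF2, 2.16 and 2.58 in MYB3R1 replicates 1 and 2). MYB37 and MYB84, which promote axillary meristem formation, had none, and their relative RAX2 had 1.86 in replicate 2. DUO1 and AS1, which belong to these subjects under other symbols, were bound in all 3 MYB3R1 libraries. Trichome, root hair and seed coat regulators had 0 of 5, with MYB5 at 2.60 in replicate 2 and MYB0 (GL1), MYB23, MYB66 (WER) and MYB82 unbound. Stomatal regulators had 1 of 2 (MYB88, with MYB60 at 2.13 in replicate 2), and cell division and embryogenesis regulators 1 of 5 (MYB56, with MYB48 and MYB59 unbound).

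**Figure D4:**
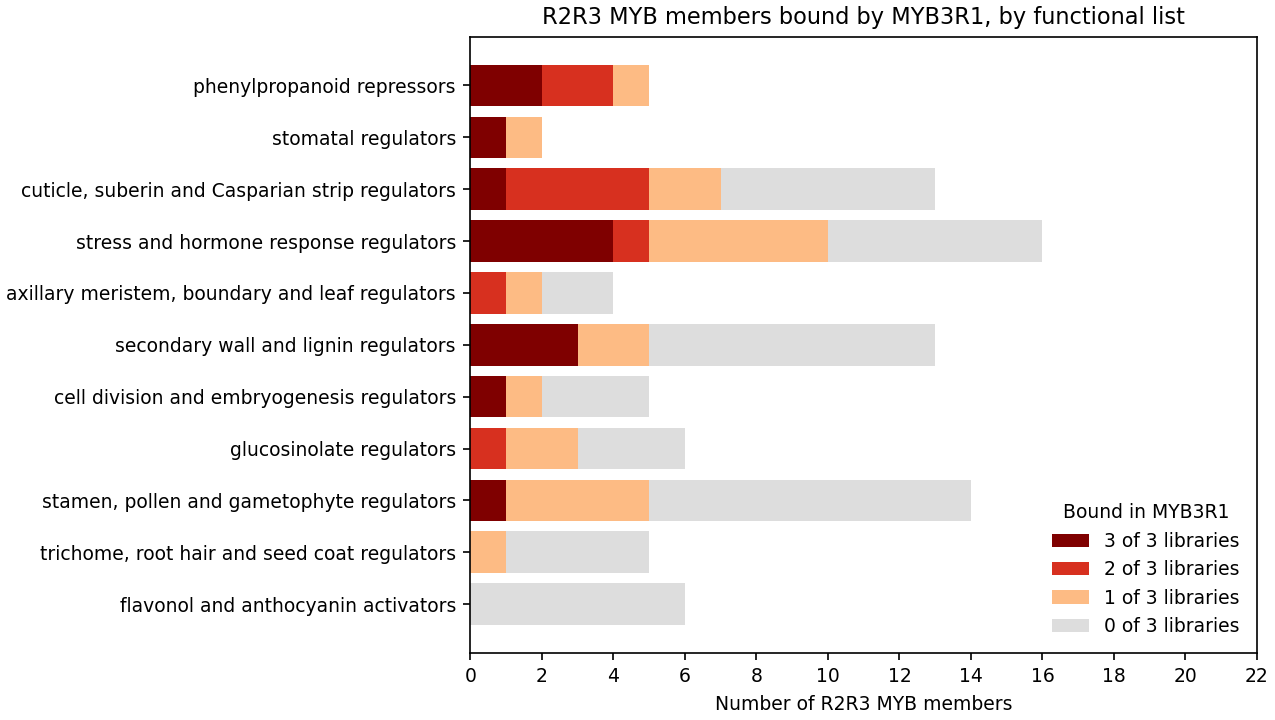
Number of R2R3 MYB members (horizontal axis) in each of 11 functional lists (rows), split by how many of the 3 MYB3R1 libraries bound them. The phenylpropanoid repressors have no unbound member, and the 6 flavonol and anthocyanin activators are all unbound.

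The 11 lists held 89 members, and 5 of the 26 in no list were bound in at least 2 MYB3R1 libraries (MYB1, MYB25, MYB109, MYB17 and MYB95). By relatedness, 95 members were placed in 24 clades of close relatives, put together from general knowledge after the peak lists had been seen. In 3 clades every member was bound in all 3 MYB3R1 libraries: MYB58 with MYB63, MYB70 with MYB73 and MYB77, and MYB1 with MYB25 and MYB109. In 8 clades no member was bound in any library, among them MYB36, MYB37, MYB68, MYB84 and MYB87, and the pairs MYB9 with MYB107 and MYB48 with MYB59. Further clades without a summit in the window were MYB50, MYB55, MYB61 and MYB86, and MYB20, MYB42, MYB43 and MYB85. Of the whole family, 14.8% was bound in every MYB3R1 library and 55.7% in none of the 8 libraries. For all genes these shares were 26.9% and 32.1%. Small clades can be uniform at such rates. Whether close relatives share binding more often than unrelated members was not tested.

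Genes encoding partners and inhibitors of R2R3 proteins were looked at in the same way. Of 4 bHLH partners, TT8, GL3 and ATMYC1 were unbound in all 8 libraries, beside 32.1% of all genes. EGL3 had 1.89 in MYB3R1 replicate 2. The WD40 partner TTG1 had 2.30 in replicate 2. Of 7 R3-MYB inhibitors, 3 were bound in all 3 MYB3R1 libraries, beside 26.9% of all genes. These sets are too small for their counts to show a difference from all genes. CPC had 2.63, 3.50 and 1.92, ETC1 had 2.99, 3.76 and 1.89, and CPL3 (ETC3) had 2.76, 3.99 and 1.95. The CPC summit of replicate 3 lay at the opposite end of the gene from those of replicates 1 and 2, 2304 bp apart at most. ETC1 and CPL3 had a peak in MYB3R4 replicate 2 as well (1.98 and 2.07). The ETC1 summits lay 25 to 253 bp from HTR12, the centromeric histone H3 gene, in every library. MYBL2 had 2.36 and 3.18 in replicates 1 and 2, with the end of LPR2 nearer in both (69 and 26 bp). TRY had 1.94 in replicate 2, and ETC2 and TCL1 were unbound.

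Among R2R3 genes carried under other names, 4 of 11 were bound in all 3 MYB3R1 libraries, beside 14.8% of members and 26.9% of all genes. Beside FLP and MYBR1 these were AS1, which represses meristem genes in leaf primordia (4.76, 4.52 and 2.18), and DUO1, a regulator of male germ cell division (2.56, 3.67 and 2.29). LAF1 had 2.17 in replicate 2. TT2, PAP1, TDF1, AtMYB103 and HOS10 had no summit in the window in any library. HOS10 had MYB3R1 summits inside the gene, beyond the window, in replicates 1 and 2. The AS1 summits lay 949 to 992 bp outside the gene, near the outer limit of the window.

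Spacing between genes differed between the family and the genome, and moved with the call. The median gap to the nearest coding gene was 1212 bp for members and 191 bp for all genes, and 64 of the 115 members (55.7%) had no coding gene within 1000 bp, beside 19.5% of all genes. A summit can be shared by neighbours. Among isolated genes 12 of 64 members (18.8%) and 27.1% of all genes were bound in at least 2 MYB3R1 libraries. Among genes with a close neighbour it was 15 of 51 members (29.4%) and 49% of all genes. The member share was thus lower in both classes, and with isolated genes alone the mean difference in MYB3R1 was -9.56 percentage points in place of -18.8. Members were also shorter, with a median gene length of 1763 bp beside 2078 bp. How much of the difference in binding comes with gene spacing or length was not tested.

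**Figure D5:**
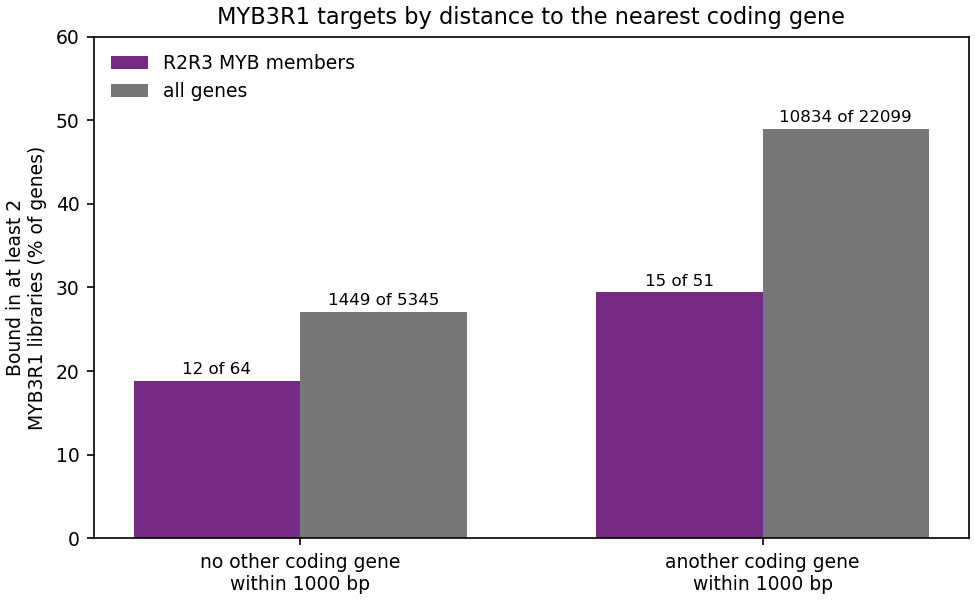
Percent of genes bound in at least 2 MYB3R1 libraries (vertical axis) among R2R3 MYB members and all genes, for genes with no other coding gene within 1000 bp and for genes with one; numbers above the bars are genes bound of genes in the class. Members stand below all genes in both classes (18.8% beside 27.1%, and 29.4% beside 49%).

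Summits at members lay mostly outside the gene, which the window favours, since it reaches 1000 bp outside and 200 bp inside. The same shares were not computed for all genes, so this is no trait of the members. In MYB3R1 replicates 1, 2 and 3, 26 of 29, 40 of 46 and 18 of 20 strongest summits were outside, at a median of 595, 526 and 630 bp from the gene end. The member's end was the nearest coding gene end for 20, 32 and 14 of them. On the window's outer side, the last member counted in each library was MYB2 at 859 bp (fold 2.81, replicate 1), MYB92 at 963 bp (fold 1.88, replicate 2) and MYB72 at 960 bp (fold 2.85, replicate 3). The first member beyond it was MYB11 in all 3, with summits 1070, 1016 and 1009 bp outside.

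For the 64 unbound members, the nearest MYB3R1 summit outside the gene was at a median distance of 2916 bp, from 1009 bp (MYB11) to 21218 bp. For 42 of them no MYB3R1 summit lay within 2000 bp outside the gene, and for 20 none lay within 5000 bp. MYB11, MYB12, MYB34, MYB55, MYB99, MYB108 and MYB111 had a MYB3R1 summit inside the gene, beyond the window. The flavonol activators MYB11, MYB12 and MYB111 were all among these 7. MYB10 and MYB51 had a summit 1095 and 1110 bp outside. MYB0 was 2726 bp, MYB14 5590 bp, MYB20 7288 bp and MYB48 10280 bp away. Unbound members not named so far were MYB19, MYB22, MYB31, MYB39, MYB40, MYB45, MYB49, MYB52, MYB53, MYB54, MYB62, MYB64, MYB69, MYB78, MYB79, MYB81, MYB89, MYB93, MYB98, MYB100, MYB104, MYB112, MYB115, MYB119, MYB121 and MYB305.

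Members bound in at least 2 MYB3R1 libraries were spread over all chromosomes. They made up 5 of 25 members on chromosome 1, 3 of 11 on chromosome 2, 7 of 28 on chromosome 3, 6 of 16 on chromosome 4 and 6 of 35 on chromosome 5. On each the member share lay below that of all genes of the chromosome, which ran from 38.9% on chromosome 2 to 47.5% on chromosome 3.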

How the data were processed

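The deposited files were 8 narrowPeak lists, 1 per ChIP library. Per the submitters' processing notes, FastQC, Trimmomatic, Bowtie2 and Picard were used (versions not stated) with TAIR10. Which program called peaks, and which of the 7 input samples (whose files were not analysed here) served which list, is not stated. The names of the deposited files state calling against input and a read extension of 400 bp. The deposited columns held a score, the fold enrichment (a ratio) at the summit, the -log10 p-value and -log10 q-value as the authors called them, and the summit's offset. Peaks on organelle genomes (584 in all lists) were left out. Depth is unknown, so no interval is given.

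Genes came from a RefSeq-derived table of TAIR10.1 without strand or sequence; no motif was searched. Work was done in Python 3.11.15 with pandas 2.3.3, numpy 2.4.6 and matplotlib 3.10.9, and the window rule was tested on simulated data. The members, functional lists, named-gene rule and alternatives were chosen with earlier results of these data known. The rule named members with a MYB3R4 or MYB3R4mNES peak, the 10 strongest in all 3 MYB3R1 libraries by median percentile of fold enrichment, the most often bound and up to 2 unbound members of each list, and those at the window's edge; other members are named to account for all 115. The clades and the genes MYBR1, AtMYB103, RAX2 and HOS10 were added after the data were seen. Percent values are shares of genes; means are over libraries with SD. Alternatives were other windows, any peak overlap, stricter q, 227 peaks per library, nearest gene only, each library left out, 1 naming style, and isolated genes only.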

Additional observations from a re-analysis of the deposited data

How the results depend on the processing

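The mean member share in MYB3R1 (27.5%) was 13.3% with a window of 500 bp, 42.0% with 2000 bp and 1.16% with the 227 strongest peaks of each library, and between 21.3% and 32.6% when each library was dropped. The difference from all genes (-18.8 points) was -26.1 with 500 bp, -11.6 with a -log10 q of at least 10 and -0.0163 with 227 peaks. It was -11.8 with each summit counted for its nearest gene, -9.56 with isolated genes (chosen after seeing the data) and -22.1 to -15.2 with each library dropped. With 227 peaks, 2, 1 and 1 members were bound in MYB3R1 replicates 1, 2 and 3, too few to show a gap of the same ratio. MYB3R4 replicates 1, 2 and 3, cut to 227 peaks, had 3, 4 and 1 members bound (2.61%, 3.48% and 0.87%). For all genes the shares were 0.721%, 0.882% and 0.711%. These member counts are also too small to show a difference. Members bound in at least 2 MYB3R1 libraries (27) numbered 12 with 500 bp, 43 with 2000 bp, 1 with 227 peaks and 12 with isolated genes, and 17 to 26 when each library was dropped in turn, the lowest (17) without MYB3R1 replicate 2. The MYB3R4mNES share (0.870%) was 0 with 500 bp, with nearest genes and with isolated genes, since MYB80 is its 1 bound member; with a library left out it was 0.870%. The MYB3R4 share (5.22%) ran from 1.45% with 500 bp to 5.80% with 2000 bp, was 0.870% in the second naming style alone, and 2.17% to 7.39% with a library left out. With 227 peaks, MYB80 was bound in all 8 libraries. With nearest genes, MYB80, MYB58, MYB46, MYB41 and MYB63 were no longer bound in all 3 MYB3R1 libraries. No paired analysis was possible because the results come from no test. Counting gene starts alone was not run, since the gene table gives no strand. List length, with depth unknown, limits comparisons between libraries.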
